A study of Mus musculus with 6 samples.

Results

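The BCL2 family controls mitochondrial apoptosis, and 10 of its genes were followed in wild-type (WT) and Oct6-KO epiblast-like cells (EpiLCs): Bcl2, Bcl2l1, Mcl1, Bax, Bak1, Bcl2l11, Bid, Bad, Pmaip1 and Bbc3. They were found in the count table by their Ensembl identifiers, matched to GENCODE gene names. All 10 were among its 55416 genes and all 10 passed the filter on low counts, out of 15746 genes tested. EpiLCs are formative pluripotent cells obtained from naïve mouse embryonic stem cells (mESCs). Here the cells were kept for 48 h on fibronectin in N2B27 medium to which KSR had been added to 1%, Activin A to 20 ng/ml and bFGF to 12 ng/ml, as the sample labels give them, whereas the series' design text has the same figures in µg/ml. WT cells were the parental 46C line, whose neural gene Sox1 drives GFP, and Oct6-KO cells were 1 clone of it with a homozygous CRISPR/Cas9 insertion of a nucleotide near the start of the Oct6 coding sequence. With 3 WT libraries and 3 KO libraries, from cultures that the study describes as paired biological replicates, the effect of the missing OCT6 and that of having grown from a single clone cannot be told apart.

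Apoptosis through mitochondria is decided by contacts between members of this family. The pro-survival proteins BCL2, BCL-XL (from Bcl2l1) and MCL1 hold the effectors BAX and BAK (from Bak1) in check, while the BH3-only proteins BIM (from Bcl2l11), BID, BAD, NOXA (from Pmaip1) and PUMA (from Bbc3) bind the pro-survival proteins or the effectors and tip the balance towards pore formation. Cytochrome c then leaves the mitochondrion and starts the caspase cascade. Pluripotent cells are known to stand close to this threshold. Much of the control acts on the proteins, through cleavage of BID, phosphorylation of BAD and rapid turnover of MCL1 and NOXA, and is not seen in RNA.

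The contacts are made through the BH3 segment, the one feature that effectors, pro-survival and BH3-only proteins have in common. To show it, the coding sequence of each canonical transcript was searched for a leucine codon that is followed, after 3 codons, by a codon for glycine, alanine or serine and then by one for aspartate. The pattern is short and occurred in 34.1% of 21565 canonical mouse coding sequences, so that a match alone does not define a BH3 segment. Each of the 10 genes had it, once in 9 of them and at 2 places in Pmaip1. The 27 bases that begin at the leucine codon are given 5′ to 3′ on the coding strand, from GENCODE release M39 on GRCm39, with the leucine codon and the last 2 codons of the pattern in capitals.
Bcl2: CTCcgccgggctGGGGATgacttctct
Bcl2l1: CTGagagaggcaGGCGATgagtttgaa
Mcl1: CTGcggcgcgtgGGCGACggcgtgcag
Bax: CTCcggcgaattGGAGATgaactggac
Bak1: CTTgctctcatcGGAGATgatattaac
Bcl2l11: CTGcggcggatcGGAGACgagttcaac
Bid: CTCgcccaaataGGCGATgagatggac
Bad: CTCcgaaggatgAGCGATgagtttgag
Bbc3: CTGcggcggatgGCGGACgacctcaac

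In Mcl1 the segment lay in exon 1 of 3 on the plus strand (chr3:95566747-95566773), in Bak1 in exon 4 of 6 on the minus strand (chr17:27241505-27241531), and in Bax in exon 3 of 6 on the minus strand (chr7:45115421-45115447). The bases of Pmaip1 are not reported here. Among the other genes, Bcl2l11 and Bbc3 had the most bases in common, 22 of 27, and Bcl2 and Bak1 the fewest, 11 of 27. Reads were counted per gene. They do not separate splice forms that lack or keep this segment, nor the long pro-survival form of Bcl2l1 from its short pro-apoptotic form.

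Library totals ran from 10995505 to 14680930 counts. The 10 genes took 0.116%, 0.112% and 0.109% of WT and 0.0958%, 0.0945% and 0.0972% of KO replicates 1 to 3. For this share every KO library was below every WT library. Mitochondrial genes took 0.445% to 0.573%, and no library stood apart in this measure or in the totals. Counts on Oct6 (Pou3f1) were 142 ± 19.4 CPM (counts scaled to a common library size with TMM factors; SD, n = 3) in WT and 132 ± 7.59 CPM in KO EpiLCs, which checks nothing because the inserted base leaves the transcript countable. The 6 markers of EpiLCs summed to 2692 to 2988 CPM in WT and 2633 to 2786 CPM in KO libraries, a sum made up mostly of Dnmt3b and Pou5f1. Of the 6, Fgf5, Otx2 and Sox2 rose and none fell. Summed markers of primitive endoderm ran from 4.26 to 4.78 CPM in WT and were 10.2, 4.63 and 12.8 CPM in KO replicates 1 to 3. Neural markers summed to 73.0 to 77.2 CPM in WT and 35.3 to 39.2 CPM in KO, and trophoblast markers, mainly Krt8, to 86.0 to 105 CPM and 45.7 to 62.3 CPM. All 3 tested neural markers (Sox1, Tubb3 and Nes) fell, 2 of 3 tested primitive endoderm markers (Gata6 and Pdgfra) rose, and of 3 tested trophoblast markers Krt8 fell and Eomes rose. These are calls at an adjusted p below 0.1 in the edgeR test described below, which called 24.3% of all genes tested. The Pdgfra call was marginal (edgeR, adjusted p = 0.0991), and its groups overlapped. Cdx2 and Elf5, which define trophoblast, were at 0.394 and 0.0995 CPM in WT and 0.0791 and 0.0501 CPM in KO EpiLCs on average. Mesoderm markers summed to 0.746 to 0.947 CPM in WT and 0.771 to 0.827 CPM in KO. Fibroblast markers summed to 7.30 to 9.55 CPM in WT and 4.94 to 5.43 CPM in KO, and 1 of 3 tested, Thy1, fell.

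Expression of 2 of the 10 genes fell in KO EpiLCs. They were Mcl1, the most abundant pro-survival gene, which was 19.5% lower, and Bak1, one of the effectors, which was 35.6% lower. The other 8 genes, all 5 BH3-only genes among them, did not pass the test. None rose, in edgeR's quasi-likelihood test at an adjusted p (Benjamini-Hochberg over the 15746 genes) below 0.1, at an unadjusted p below 0.05, or with DESeq2. The share of 2 in 10 is close to that of all genes, of which 24.3% were called in either direction and 12.5% as lower in KO EpiLCs. It therefore says nothing particular about the family. The median log2 fold change of the 10 genes was −0.051, against 0.0014 over all genes tested.

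**Figure D1:**
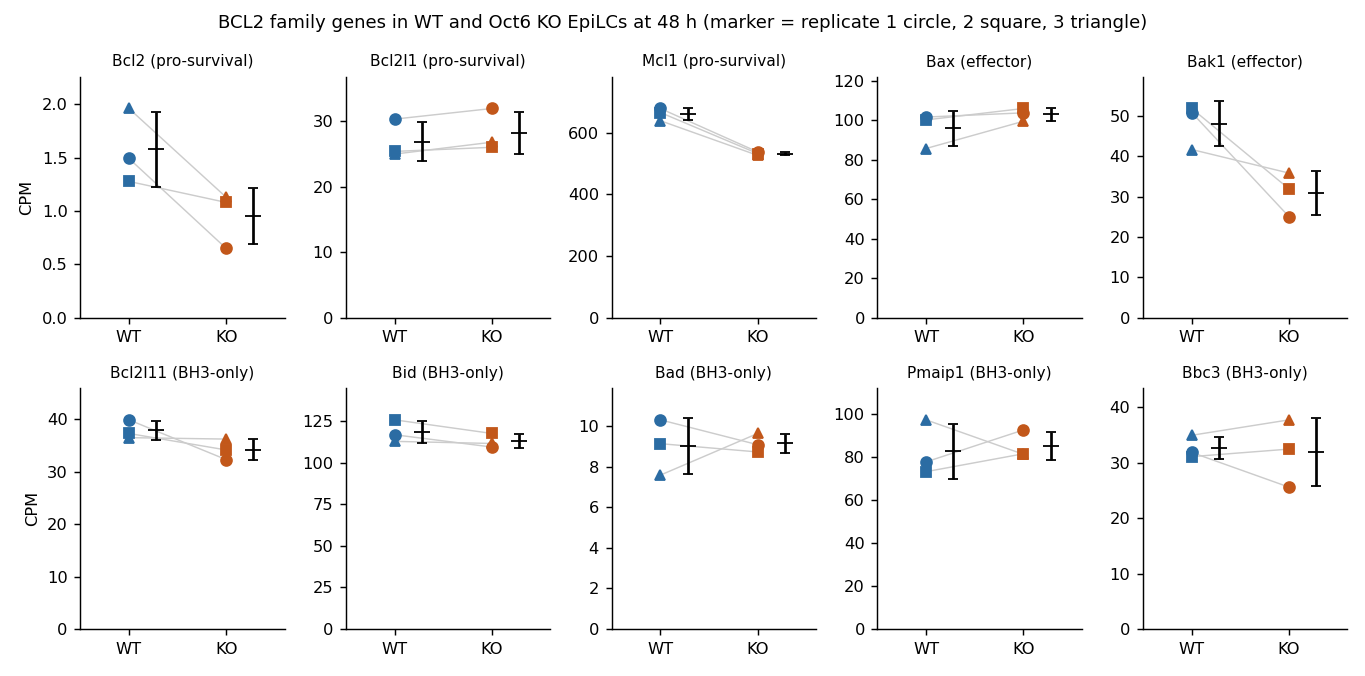
TMM-normalized CPM of the 10 genes in each library, 1 panel per gene with its own axis from 0. Circles, squares and triangles are replicates 1, 2 and 3, grey lines join libraries with the same number, and the black bars give mean ± SD (n = 3). WT and KO libraries were apart for Mcl1, Bak1, Bcl2 and Bcl2l11, and overlapped for the other 6 genes. Of all genes tested, 33.7% were apart in this way, so that the count says nothing particular about the family.

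Among the pro-survival genes, Mcl1 (ENSMUSG00000038612.17, chromosome 3 of GRCm39, 95566026 to 95570487) encodes the short-lived protein on which early embryonic cells depend. Taken in the order of the replicate numbers, it was measured at 678, 665 and 639 CPM in the WT and at 537, 532 and 526 CPM in the KO libraries. Every KO library was below every WT library, and the libraries of a group differed by less than the groups did. On the log2 scale it fell by 0.31 with a standard error of 0.090 (edgeR, adjusted p = 0.0186). Of all genes tested, 33.7% had groups that did not overlap. The median log2 fold change of the 123 genes tested within 5 Mb of Mcl1 was −0.021, so that its neighbours did not move with it. Leaving out each library in turn gave log2 fold changes from −0.34 to −0.30 and adjusted p-values that stayed below 0.1 but rose to at most 0.0666.

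Bcl2l1 (ENSMUSG00000007659.19, chromosome 2, 152622582 to 152673655), the source of BCL-XL, had 30.3, 25.4 and 25.0 CPM in WT and 31.9, 26.0 and 26.8 CPM in KO replicates 1 to 3. These groups overlapped, and in each replicate number the KO library was slightly the higher one. Its log2 fold change was 0.070 with a 95% interval from −0.21 to 0.35 (edgeR, adjusted p = 0.776). Bcl2 (ENSMUSG00000057329.8, chromosome 1, 106465908 to 106642060), the founding member of the family, was close to the lower end of what could be counted. Its libraries held 20, 14 and 29 counts in WT and 8, 14 and 15 counts in KO replicates 1 to 3, or 1.49, 1.28 and 1.96 CPM against 0.648, 1.08 and 1.13 CPM. All KO libraries were below all WT libraries, but the log2 fold change of −0.73 had a 95% interval from −1.57 to 0.11 and did not pass the test (edgeR, adjusted p = 0.238). At this depth the interval holds no change as well as a fall larger than that of Bak1.

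Of the effectors, Bak1 was called and Bax was not, and the difference between their changes was not tested. Bak1 (ENSMUSG00000057789.15, chromosome 17, 27238784 to 27247983) encodes BAK, which resides on the outer mitochondrial membrane. It had 50.9, 51.9 and 41.7 CPM in WT and 25.0, 31.9 and 35.9 CPM in KO replicates 1 to 3. Even the highest KO library, replicate 3, was below the lowest WT library, also replicate 3. Bak1 fell by 0.64 on the log2 scale with a standard error of 0.14 (edgeR, adjusted p = 0.0024). Leaving out single libraries moved the log2 fold change between −0.75 (without KO replicate 3) and −0.51 (without KO replicate 1), with adjusted p-values of at most 0.0186. The 213 genes tested within 5 Mb of it had a median of −0.063. Bak1 shares 437 exonic bases (18.2%) with Ggnbp1 on the other strand. Ggnbp1 was at 1.26 CPM in WT and 1.14 CPM in KO EpiLCs, and whether counting used the strand of the reads is not given in the sources used here.

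Bax (ENSMUSG00000003873.12, chromosome 7, 45111015 to 45116325), whose protein moves from the cytosol to mitochondria on activation, had 102, 100.3 and 85.8 CPM in WT and 104, 106 and 99.6 CPM in KO replicates 1 to 3. WT replicate 3 was the lowest library, and the groups overlapped. For Bax the log2 fold change was 0.11 with a 95% interval from −0.10 to 0.31 (edgeR, adjusted p = 0.527). It shares 192 exonic bases with Gm45808 on its own strand, which had no counts. The log2 ratio of Bak1 to Bax counts within a library, looked at after the values of both genes were seen and given without a test, ran from −1.04 to −0.95 in WT and was −2.05, −1.73 and −1.47 in KO replicates 1 to 3. Bak1 thus stood lower relative to Bax in each KO library than in any WT library, by 0.76 on average.

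**Figure D2:**
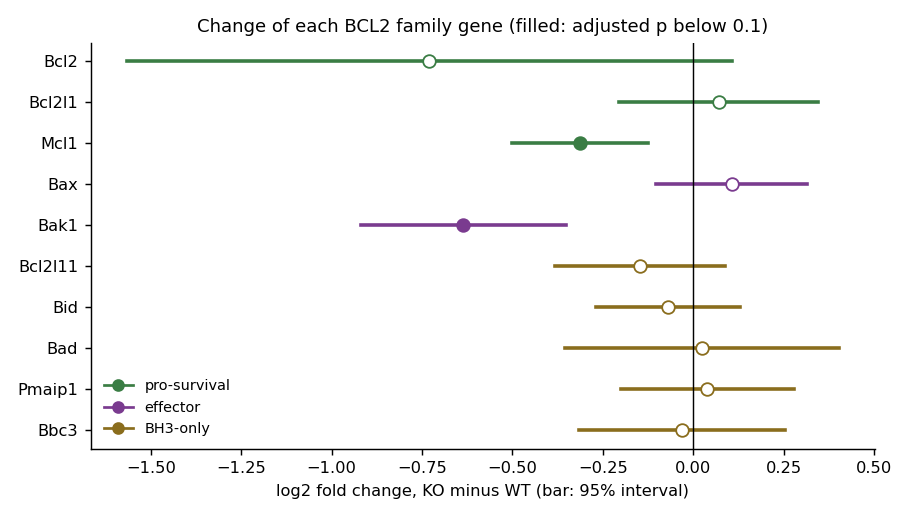
Log2 fold change (KO minus WT) of each gene from edgeR, with its 95% interval as a bar and the role of the gene by color. Filled points, Mcl1 and Bak1, had an adjusted p below 0.1, and the interval of each of the other 8 genes includes 0.

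None of the 5 BH3-only genes was called, at an adjusted p below 0.1 in edgeR or DESeq2 or at an unadjusted p below 0.05. Bcl2l11 (ENSMUSG00000027381.17, chromosome 2, 127967958 to 128004476) encodes BIM, which binds all pro-survival proteins. It had 39.9, 37.3 and 36.5 CPM in WT and 32.3, 34.2 and 36.3 CPM in KO replicates 1 to 3. WT replicate 3 and KO replicate 3 were nearly equal, and the groups did not overlap. Its log2 fold change was −0.15, with a 95% interval from −0.38 to 0.089 (edgeR, adjusted p = 0.419).

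Bid (ENSMUSG00000004446.13, chromosome 6, 120862525 to 120894171), whose product links death receptors to mitochondria once caspase-8 has cut it, had 117, 126 and 113 CPM in WT and 110, 118 and 112 CPM in KO replicates 1 to 3. KO was the lower library in each pair, by little, and the groups overlapped. A log2 fold change of −0.070 was fitted, with a 95% interval from −0.27 to 0.13. The gene lies on chromosome 6, but its 105 tested neighbours within 5 Mb had a median of only −0.044. Of its merged exon length 31.2% is shared with Bcl2l13 on the other strand, which was at 81.7 CPM in WT and 69.2 CPM in KO EpiLCs.

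Pmaip1 (ENSMUSG00000024521.9, chromosome 18, 66591604 to 66598636) encodes NOXA, which binds MCL1. It had 77.5, 73.0 and 97.1 CPM in WT and 92.4, 81.3 and 81.1 CPM in KO replicates 1 to 3. Its highest library was WT replicate 3 and the lowest WT replicate 2, so that the KO values lay inside the WT range. Its log2 fold change was 0.039, with a 95% interval from −0.20 to 0.28. Bbc3 (ENSMUSG00000002083.14, chromosome 7, 16042318 to 16052130) encodes PUMA and had 31.9, 31.1 and 35.0 CPM in WT and 25.6, 32.5 and 37.8 CPM in KO replicates 1 to 3. Its KO libraries enclosed the WT libraries. For Bbc3 the log2 fold change was −0.032, with a 95% interval from −0.32 to 0.25. Bad (ENSMUSG00000024959.15, chromosome 19, 6918902 to 6929280), whose product is silenced by survival kinases, was low. It had 10.3, 9.13 and 7.58 CPM in WT and 9.07, 8.72 and 9.63 CPM in KO replicates 1 to 3, with the KO values inside the WT range. The fitted log2 fold change of Bad was 0.025, with a 95% interval from −0.35 to 0.40. Bad shares 20.4% of its exonic bases with Gpr137 and 25.2% with Gm56656, both on the other strand. Gpr137 was at 3.89 CPM in WT and 3.08 CPM in KO EpiLCs, and Gm56656 was not among the genes counted. The adjusted p-values of Bid, Pmaip1, Bbc3 and Bad in the edgeR test were 0.685, 0.864, 0.912 and 0.949. The intervals leave room for moderate changes, but of the 8 genes without a call Bcl2 alone has an interval that reaches the estimated fall of Bak1.

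Bax, Bbc3 and Pmaip1 are textbook targets of p53. Their log2 fold changes were 0.11, −0.032 and 0.039 in the same libraries in which Mdm2, another p53 target and the ligase that degrades p53, rose from 310 ± 65.5 to 423 ± 25.1 CPM (SD, n = 3). Mdm2 is named here because it was called, and whether p53 activity differed between WT and KO EpiLCs was not tested.

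To compare levels between genes, CPM were divided by the merged exon length in kb. On this scale, Mcl1 was the most abundant of the 10 genes in every library, at 189 ± 5.79 CPM per kb (SD, n = 3) in WT and 151 to 154 CPM per kb in KO EpiLCs. Bax followed with 51.7 ± 4.75 and 55.6 ± 1.78 CPM per kb, Pmaip1 with 30.2 ± 4.68 and 31.1 ± 2.36 CPM per kb, and Bak1 with 20.0 ± 2.33 and 12.9 ± 2.28 CPM per kb. Bid, Bbc3, Bcl2l1, Bcl2l11 and Bad came next, from 12.1 to 2.01 CPM per kb in WT, and Bcl2 was last at 0.171 ± 0.0380 CPM per kb. In WT EpiLCs no gene overlapped over the 3 libraries with the next in this order. The order of the means was the same in KO EpiLCs, where Bak1, at 10.4 to 14.9 CPM per kb, overlapped with Bid, at 11.2 to 12.0 CPM per kb, and Bbc3 overlapped with Bcl2l1. The place of Bid depends on the length used. With the longest transcript Bid was above Bak1 in every library of both groups, and with the canonical transcript, a length chosen after seeing the data, it was also above Pmaip1.

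**Figure D3:**
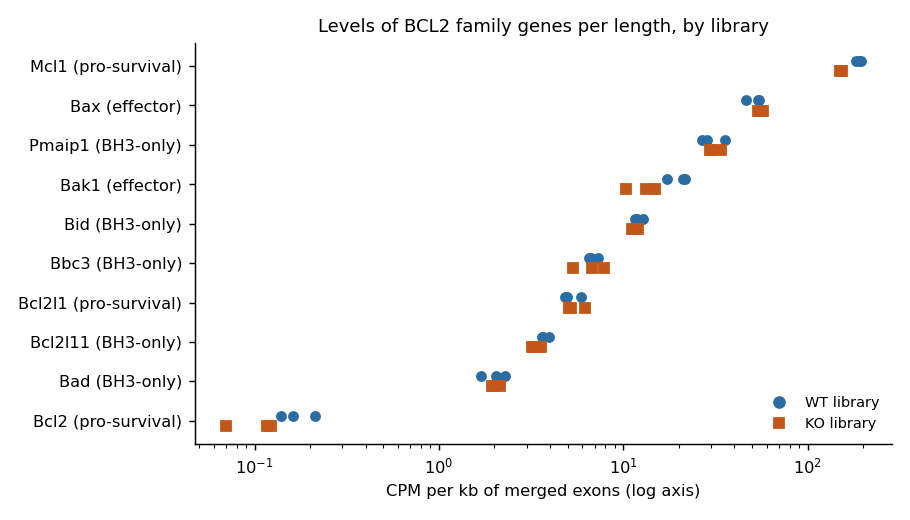
CPM per kb of merged exons for the 10 genes, on a log axis, with 1 point per library (circles WT, squares KO) and the genes ordered by their WT mean. Mcl1 lies highest at 151 to 194 CPM per kb, Bcl2 lowest at 0.0704 to 0.213 CPM per kb, and the KO points of Bak1 reach down to those of Bid with this length.

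Set against each other on the scale per kb, the 3 pro-survival genes summed to 200.3, 196 and 188 CPM per kb in WT and 160.2, 158 and 156 CPM per kb in KO replicates 1 to 3. The effectors summed to 71.7 ± 7.06 CPM per kb in WT and 68.4 ± 2.03 CPM per kb in KO EpiLCs, and the BH3-only genes to 54.9 ± 4.19 and 54.7 ± 0.836 CPM per kb (SD, n = 3). Pro-survival genes made up 60.8%, 60.6% and 60.4% of the sum of all 10 genes in WT and 56.8%, 55.9% and 55.9% in KO replicates 1 to 3. All KO libraries were below all WT libraries, and the means differed by 4.40 percentage points, a description that carries no test. Mcl1 made up between 96.1% and 97.4% of the pro-survival sum in each library. Without Mcl1, the pro-survival share was 4.09% ± 0.345 in WT and 4.35% ± 0.484 in KO EpiLCs, with overlapping libraries. The size of the share depends on the gene lengths used. With the longest or the canonical transcript of each gene it was 51.3% or 46.3% in WT and 46.4% or 41.5% in KO EpiLCs.

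Ratios within a library do not depend on its scaling, and 4 pairs of binding partners were compared with a two-sided exact permutation test over the 6 libraries, whose smallest possible p is 0.1. No pair can therefore reach 0.05. The log2 ratio of Mcl1 to Pmaip1 was 3.13, 3.19 and 2.72 in WT and 2.54, 2.71 and 2.70 in KO replicates 1 to 3. WT replicate 3 was only just above KO replicate 2, the groups did not overlap, and the difference of −0.36 had an exact p of 0.1. The log2 ratio of Bcl2 to Bcl2l11 was −4.74, −4.87 and −4.22 in WT and −5.64, −4.98 and −5.01 in KO replicates 1 to 3. This difference of −0.60 also had an exact p of 0.1 and rested on the few counts of Bcl2. For Mcl1 to Bak1, both of which fell, the ratio was 3.78 ± 0.135 in WT and 4.12 ± 0.280 in KO EpiLCs (SD, n = 3), with overlapping groups and an exact p of 0.2. For Bcl2l1 to Bax the difference was −0.038, with an exact p of 0.8. After Benjamini-Hochberg adjustment over the 4 pairs the values of these exact tests were 0.2, 0.2, 0.267 and 0.8. With libraries paired by replicate number, the smallest p that a sign-flip test can give is 0.25. That test gave 0.25 for Mcl1 to Pmaip1 and for Bcl2 to Bcl2l11, and 0.5 for Mcl1 to Bak1 and for Bcl2l1 to Bax.

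**Figure D4:**
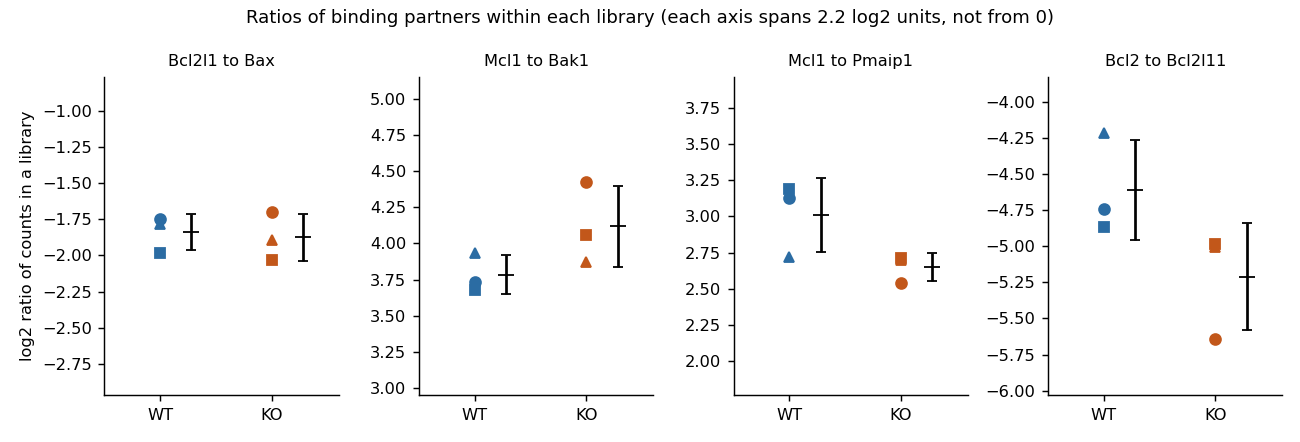
Log2 ratio of the counts of binding partners in each library, with replicates 1 to 3 as circles, squares and triangles and black bars for mean ± SD (n = 3). Each vertical axis spans the same width and does not start at 0. WT and KO libraries are apart for Mcl1 to Pmaip1 and for Bcl2 to Bcl2l11, and overlap for the other pairs.

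The summed neural, trophoblast and fibroblast markers were lower in every KO than in every WT library, as were Mcl1 and Bak1. Groups were apart in 33.7% of all genes tested, so that this is a common trait. The trophoblast sum is mainly Krt8, and the trophoblast marker Eomes rose. The summed primitive endoderm markers were above the WT range in KO replicates 1 and 3, and the mesoderm sums overlapped. The part of these markers in the values of Mcl1 and Bak1 was not tested. In RNA from whole cultures, fewer cells that express a gene and less RNA per cell cannot be told apart.

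The patterns most like those of Mcl1 and Bak1 were sought among 13198 genes with an average log2 CPM of at least 1, by the root mean square difference of the log2 CPM over the 6 libraries after centring each gene on its mean. Nearest to Mcl1 were Ncapd2, Bcap31 and Ist1, with differences of 0.027 to 0.031 and log2 fold changes of −0.31, −0.29 and −0.31. Nearest to Bak1 were Tmem37, Zxdc and Ier2, with differences of 0.062 to 0.072 and log2 fold changes of −0.62, −0.66 and −0.59. The difference between WT and KO is part of the pattern that was matched. Similar log2 fold changes therefore follow from the selection and are no result of their own.

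Of the 15 other genes of the BCL2 family that were listed, 10 had enough counts to be tested. Of these, 2 fell and none rose (20% called, against 24.3% of all genes tested), and the median log2 fold change was −0.22. Bmf, a BH3-only gene whose product is tied to the cytoskeleton, fell from 43.7 ± 4.12 to 32.7 ± 1.53 CPM (SD, n = 3), and the fitted log2 change of −0.42 had a standard error of 0.11 (edgeR, adjusted p = 0.0144). Hrk, a BH3-only gene best known from neurons, went from 2.47 ± 0.490 to 1.19 ± 0.567 CPM, and its log2 change of −1.04 had a standard error of 0.39 (edgeR, adjusted p = 0.0715). The Hrk call was lost with DESeq2 (adjusted p = 0.102) and without WT replicate 2, WT replicate 3 or KO replicate 2. Without KO replicate 2 the Hrk log2 fold change shrank to −0.70 with an adjusted p of 0.273 in edgeR, the highest over all alternatives. The effector relative Bok, at 44.9 ± 3.42 and 36.3 ± 6.21 CPM, had an adjusted p of 0.104 in edgeR. The A1 genes Bcl2a1a, Bcl2a1b and Bcl2a1d, close paralogs, had no count in any library.

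Of the 11 genes that act at the mitochondrion or in the apoptosome, all were tested. Of these, 3 rose and 2 fell (45.5% called, against 24.3% of all genes tested), with a median log2 fold change of −0.083. Cycs, which encodes cytochrome c, fell from 125 ± 9.79 to 86.6 ± 9.91 CPM, and Htra2, a protease released with it, from 52.0 ± 2.93 to 33.2 ± 3.39 CPM. Opa1, which fuses the inner membrane and shapes its cristae, rose from 148 ± 4.66 to 224 ± 11.5 CPM, and Dnm1l, which divides mitochondria, from 235 ± 34.4 to 376 ± 7.68 CPM. These values moved with those of their chromosomal neighbours. The log2 fold changes of Cycs and Htra2 on chromosome 6, −0.53 and −0.65, stood beside medians of −0.49 and −0.52 among the genes within 5 Mb, and those of Opa1 and Dnm1l on chromosome 16, 0.60 and 0.68, beside 0.57 and 0.51. Apaf1, which encodes the scaffold of the apoptosome and was singled out after its value was seen, rose from 115 ± 9.94 to 146 ± 16.4 CPM on chromosome 10, where the median of its neighbours was −0.057. Its call was lost without WT replicate 2 or KO replicate 1 (log2 fold changes 0.28 and 0.26, against 0.34 with all libraries).

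Of 9 tested genes among the caspases and their substrates, 3 fell and none rose (33.3% called, against 24.3% of all genes tested). Their median log2 fold change was −0.083. Casp2, an initiator, went from 41.3 ± 2.03 to 27.4 ± 1.71 CPM, a log2 change of −0.60 beside a median of −0.46 for its neighbours on chromosome 6. The initiator Casp9 fell from 16.0 ± 1.80 to 11.7 ± 0.542 CPM, with a log2 fold change of −0.44 (edgeR, adjusted p = 0.0538). The Casp9 call was lost without WT replicate 2, KO replicate 1 or KO replicate 2.

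Among 6 tested caspase inhibitors, with a median log2 fold change of 0.074, 1 rose (16.7% called, against 24.3% of all genes tested). It was Birc3 (cIAP2), with 6.45 ± 0.972 CPM in WT and 10.9 ± 1.39 CPM in KO EpiLCs (log2 fold change 0.77, edgeR, adjusted p = 0.0070). In the death receptor arm, 1 of 7 tested genes rose and 1 fell (28.6% called), with a median log2 fold change of −0.18. Ripk1, a kinase shared by survival and death signals, rose from 22.6 ± 0.717 to 34.4 ± 1.46 CPM, and Tradd, an adaptor of the TNF receptor, fell from 12.2 ± 1.99 to 7.08 ± 0.915 CPM, with adjusted p-values of 0.0011 and 0.0059 in edgeR.

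Of 14 regulators of the family, all tested, 3 rose and 2 fell (35.7% called, against 24.3% of all genes tested). Their median log2 fold change was 0.026. Fbxw7, a ubiquitin ligase subunit that can mark MCL1 for degradation, rose from 75.4 ± 5.70 to 103 ± 6.98 CPM (log2 fold change 0.45, edgeR, adjusted p = 0.0036). Huwe1, another ligase for MCL1, and Usp9x, which removes ubiquitin from it, were not called, with adjusted p-values of 0.765 and 0.154 in edgeR. Atf4, a transcription factor of the integrated stress response, fell from 268 ± 28.5 to 122 ± 13.7 CPM, or by 1.14 on the log2 scale. Akt1, a survival kinase that phosphorylates BAD, fell from 49.9 ± 4.23 to 38.9 ± 2.05 CPM, or by 0.36 on the log2 scale, and its call was lost without WT replicate 2 or KO replicate 2 (adjusted p = 0.103 and 0.123 in edgeR). Mdm2, given above, rose by 0.45 on the log2 scale (edgeR, adjusted p = 0.0135). Trp73, a relative of p53 named after its value was seen, had a log2 fold change of 0.61 that varied from 0.40 without WT replicate 2 to 0.93 without WT replicate 1. Each of WT replicates 2 and 3 and KO replicates 1 and 3 ended its call when left out. Trp53 itself was not called, at 34.2 to 51.3 CPM in WT and 43.1 to 50.9 CPM in KO EpiLCs.

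**Figure D5:**
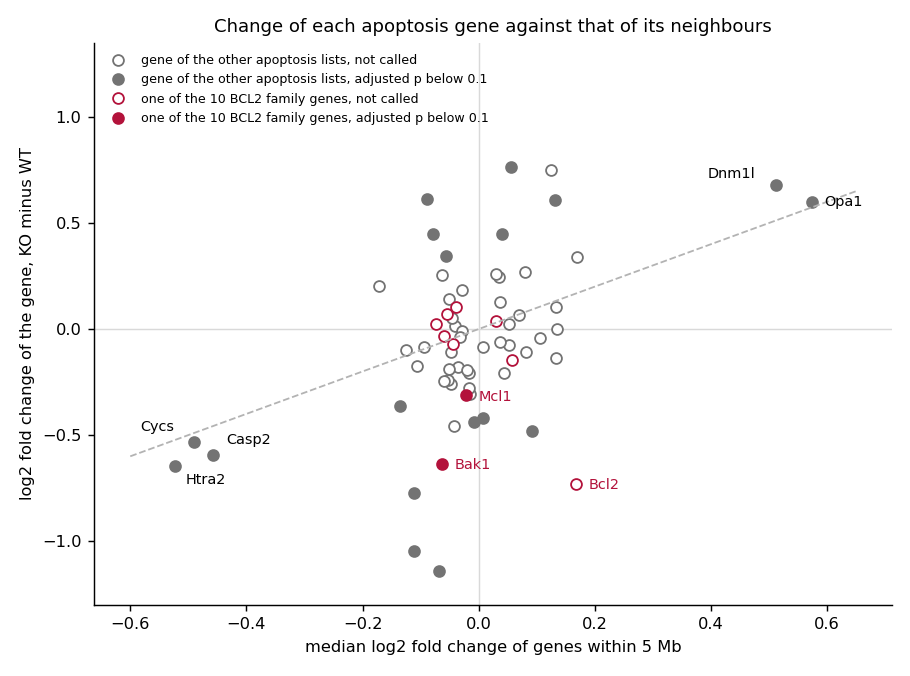
Log2 fold change (KO minus WT) of each gene against the median log2 fold change of the genes tested within 5 Mb of it, for the 10 BCL2 family genes (red) and 57 tested genes of the other apoptosis lists (grey), with calls at an adjusted p below 0.1 filled. On the dashed line a gene changes as much as its neighbours do, and Cycs, Htra2, Casp2, Opa1 and Dnm1l lie near it, while Mcl1 and Bak1 lie below neighbours whose medians were near 0.

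Over these lists, 18 of 57 tested genes were called (31.6%), 8 higher and 10 lower in KO EpiLCs, against 24.3% of all genes, and the median log2 fold change was −0.075. The 5 genes whose neighbours were shifted by at least 0.4 in either direction were all called, and of the other 52 genes 13 were called (25%). This split was made with earlier results known. The share of all genes called at each degree of shift is not given here, so that the split is a description only. None of the 10 BCL2 family genes had neighbours shifted by that much, the largest median being 0.17 beside Bcl2.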

How the data were processed

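Total RNA of 3 WT and 3 KO cultures was sequenced as paired-end stranded libraries after removal of ribosomal RNA. FastQC served for quality control and Fastp for trimming, after which the authors aligned the reads to GRCm39 (two-pass STAR) and deposited the raw counts per gene that STAR gave. The STAR version, annotation release, strand setting and treatment of multi-mapping reads are not given in the sources used here. Gene names, positions and lengths come from GENCODE M39 on GRCm39, where 54749 of 55416 identifiers were found.

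In R 4.3.3, edgeR 4.0.16 was run on all genes with TMM normalization, filterByExpr (minimum count 10) and the quasi-likelihood test, with genotype as the only term, and was tested on simulated data. Calls had a Benjamini-Hochberg adjusted p below 0.1, the study's threshold for this value. The genes that the study counted also had to change by 1 or more on the log2 scale. That second limit was not applied here, and Mcl1 (−0.31) and Bak1 (−0.64) do not reach it. Both limits together left 978 of the 15746 genes tested here with edgeR (6.21%), in place of 3833 (24.3%). The study's own count came from DESeq2 and was smaller, so that 978 does not stand for it. Standard errors come from the F statistic. Alternatives were DESeq2 1.42.0, RLE factors, library totals, other filters, a replicate block, a threshold of 0.05 and each library left out in turn.

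Named are the 10 genes, Pou3f1, and per list up to 4 called genes of smallest adjusted p, others being marked. Some genes of the caspase list are counted but not reported here by name. Members and lists were chosen with earlier results of these data known, as was the look at neighbours within 5 Mb. The study calls the replicates paired. Across 13228 genes, deviations from the group mean correlated at 0.253, 0.302 and 0.124 between libraries of the same number. Between libraries of different numbers the correlations ran from −0.228 to −0.0386. Deviations within a group sum to 0 for each gene, so that positive values at the same number bring negative ones elsewhere. The main test leaves the pairing out, and the replicate block takes it in.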

Additional observations from a re-analysis of the deposited data

How the results depend on the processing

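Under all 13 alternatives, Mcl1 and Bak1 were called as lower in KO EpiLCs and no other of the 10 genes was called, except that Bcl2 could not be tested with at least 10 counts in every library. With the replicate block, the Mcl1 and Bak1 log2 fold changes were −0.31 and −0.64, the 2 calls among the 10 genes were the same, and 24 genes of the other apoptosis lists were called in place of 18, where 30.3% of all genes were called. Leaving out single libraries, that count ran from 12 without WT replicate 2 (19.7% of all genes called) to 21 without WT replicate 1 (20.7%). Of the 8 genes without a call, 4 changed sign when 1 library was left out. Bcl2l1 ran from −0.029 (without KO replicate 1) to 0.16, Bad from −0.091 (without WT replicate 3) to 0.13, Pmaip1 from −0.046 (without WT replicate 2) to 0.17 and Bbc3 from −0.17 to 0.10 (without KO replicate 1). The difference in the log2 ratio of Bcl2l1 to Bax ran from −0.12 to 0.039 (without KO replicate 2), that of Mcl1 to Bak1 from 0.18 (without KO replicate 1) to 0.46, and that of Bcl2 to Bcl2l11 from −0.73 to −0.39 (without KO replicate 1). The pro-survival share was 51.3% in WT and 46.4% in KO EpiLCs with the longest transcript as length, and 46.3% and 41.5% with the canonical transcript, a length chosen after seeing the data. Both lengths are below the merged exons for all pro-apoptotic genes but Pmaip1. Depth limits Bcl2 most, with 8 to 29 counts per library.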
